A study of Mus musculus with 12 samples.

Results

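The voltage-gated calcium channels of the mouse left ventricle were followed through 7 subunit genes. They comprise the L-type pores Cacna1c and Cacna1d, the T-type pores Cacna1g and Cacna1h, the β subunits Cacnb2 and Cacnb3, and the α2δ subunit Cacna2d1. They were taken by name, as rows of the deposited tables with these symbols. The list of names was set with earlier results of these data known. They are 7 of the 25319 genes in the count table, and all 7 were among the 14965 genes that passed a filter on low counts and were tested. The mice, 12 C57BL/6 males, fell into 4 groups of 3, and RNA was taken from the left ventricle. Sham control mice had a sham operation at 8 weeks of age and were sampled at 12 weeks. TAC control mice had transverse aortic constriction (TAC), a clip on the aortic arch that loads the left ventricle with pressure, at the same ages. Sham dantrolene and TAC dantrolene mice had the same operations and received dantrolene, a blocker of ryanodine receptors, for 4 weeks at a daily 30 mg per kg. The labels name no vehicle for the controls, and they give no genetic change for any mouse.

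In a working heart muscle cell, the action potential opens L-type calcium channels in the transverse tubules. The calcium that enters triggers ryanodine receptors to release more from the sarcoplasmic reticulum, and this starts contraction. The pore subunit carries the current, the β subunit binds it inside the cell and helps bring it to the membrane, and the α2δ subunit sits outside and shapes gating and surface density. T-type channels open at more negative voltages. They are known from pacemaker and fetal heart cells, and their return in adult ventricle under pressure overload has been described.

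The pore gene Cacna1c, ENSMUSG00000051331.12, lies on the minus strand of chromosome 6 at 118587240 to 119196418 in GRCm38, with 27 annotated transcripts. Its reads per gene therefore sum over transcripts from several starts. Promoter sequences are shown for its first and second starts, and for the single start of Cacna2d1, because the Cacna1c starts differ in base composition while a count per gene adds them up. They come from RefSeq (GRCm38.p6) and are upstream of the start, trimmed where an annotated exon begins. Capitals mark the GC box GGGCGG on either strand.
Cacna1c first start, chr6:119196419-119196659, minus strand: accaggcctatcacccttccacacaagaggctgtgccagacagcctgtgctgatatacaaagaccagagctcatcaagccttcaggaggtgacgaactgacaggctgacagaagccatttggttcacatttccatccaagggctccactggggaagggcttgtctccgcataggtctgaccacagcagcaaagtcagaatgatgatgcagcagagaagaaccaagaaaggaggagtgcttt
Cacna1c second start, chr6:119108574-119108745, minus strand: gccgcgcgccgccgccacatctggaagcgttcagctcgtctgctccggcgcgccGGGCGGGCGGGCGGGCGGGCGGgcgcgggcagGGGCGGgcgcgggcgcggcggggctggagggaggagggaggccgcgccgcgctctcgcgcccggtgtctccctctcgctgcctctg
Cacna2d1 start, chr5:15934441-15934690, plus strand: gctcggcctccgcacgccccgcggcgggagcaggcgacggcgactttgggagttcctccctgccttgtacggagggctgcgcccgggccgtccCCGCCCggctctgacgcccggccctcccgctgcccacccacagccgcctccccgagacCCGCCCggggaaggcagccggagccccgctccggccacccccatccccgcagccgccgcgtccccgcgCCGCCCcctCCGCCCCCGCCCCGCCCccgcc
The first Cacna1c window was 51.9% G or C and held 0 GC boxes, while the second was 83.1% G or C and held 6 matches, some of them overlapping. The Cacna2d1 window was 82.4% G or C and also held 6. Over 32851 windows of 250 bases upstream of a start, the median was 52.4% G or C, and 32.7% held a GC box. The table of promoters had entries for 5 of the 7 genes, which are Cacna1c, Cacna1d, Cacnb2, Cacnb3 and Cacna2d1. Counts per gene do not show which start was used.

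The other genes are Cacna1d (ENSMUSG00000015968.14, chromosome 14, 30039939 to 30491455, minus strand), Cacna1g (ENSMUSG00000020866.15, chromosome 11, 94408391 to 94474198, minus strand) and Cacna1h (ENSMUSG00000024112.14, chromosome 17, 25374285 to 25433783, minus strand). Cacnb2 (ENSMUSG00000057914.13) spans 14603088 to 14987908 on the plus strand of chromosome 2. Cacnb3 (ENSMUSG00000003352.11) spans 98630840 to 98644529 on the plus strand of chromosome 15. Cacna2d1 (ENSMUSG00000040118.13) spans 15934691 to 16374511 on the plus strand of chromosome 5.

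Libraries held 25766378 to 38363106 counted reads. On the first principal component, which held 41.7% of the variance, 4 libraries, 1 of each group, stood apart from the other 8. They are mouse 3 of both sham groups and mouse 1 of both TAC groups. Differences of single subunits are also given without them where they changed sign or crossed the threshold, and for some that moved in size. Other moves in size are not listed. For TAC against sham over both drug arms, Cacna1g went from -0.34 to -0.55 log2 units. For the drug under sham, Cacnb3 went from -0.40 to -0.14. The 8 markers of working cardiomyocytes were all detected, at a summed 61890 to 89310 CPM per library (CPM are reads per gene as a share of the scaled library total). Ttn was low among them, at a mean of 1.70 FPKM (fragments scaled by gene length and library size). Of 6 atrial markers, 3 averaged under 1 FPKM, Myl7 and Sln among them, while Tbx5 and Myl4 averaged 3.69 and 2.59 FPKM. Nppa, a natriuretic peptide gene that ventricle also expresses, averaged 584.7 FPKM. The summed atrial markers were 220 to 503 CPM in sham control, 296 to 371 in sham dantrolene, 549.5 to 2038 in TAC control and 141 to 388 in TAC dantrolene. These sums are mostly Nppa, which had up to 72331 reads in a library, against at most 864 for any other atrial marker. They therefore do not measure atrial tissue, and the part of atrial cells in the subunit levels was not tested. Of 8 skeletal muscle markers, 4 averaged under 1 FPKM, the myosins Myh4 and Myh1 among them, while Tnni2 and Mylpf averaged 2.17 and 1.33 FPKM. Ckm and Acta1, which heart muscle also expresses, averaged 3417 and 477 FPKM. Of 7 sinoatrial and conduction markers, 5 averaged under 1 FPKM, while Hcn4 and Gja5 averaged 1.37 and 2.56 FPKM. All 6 lymphocyte markers averaged under 1 FPKM. In whole ventricle, fewer cells of a type and less RNA per cell cannot be told apart.

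Levels of different genes were compared per length, as FPKM. Cacna1c, the main ventricular L-type pore, was the highest of the 7 subunits, at 5.01 ± 2.80 FPKM (SD over 12 libraries, range 1.25 to 10.48). Cacnb2, the main cardiac β subunit, followed at 3.62 ± 1.69 FPKM, and Cacna1c was above it in 11 of 12 libraries. Cacnb3 at 1.74 ± 0.367 and Cacna2d1 at 1.62 ± 0.792 FPKM came next, and their ranges overlapped. The T-type pores lay lower, Cacna1h at 1.17 ± 0.530 and Cacna1g at 0.943 ± 0.376 FPKM, with Cacna1h above Cacna1g in 10 of 12 libraries. Cacna1d, the L-type pore best known from pacemaker and atrial cells, was the lowest at 0.0458 ± 0.0281 FPKM. Its whole range, 0 to 0.08 FPKM, lay below that of every other subunit, and the mean of Cacna1g was 20.6 times as high. Among neighbours in this order, the gap between Cacna1g and Cacna1d was the only one without overlap between ranges.

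**Figure D1:**
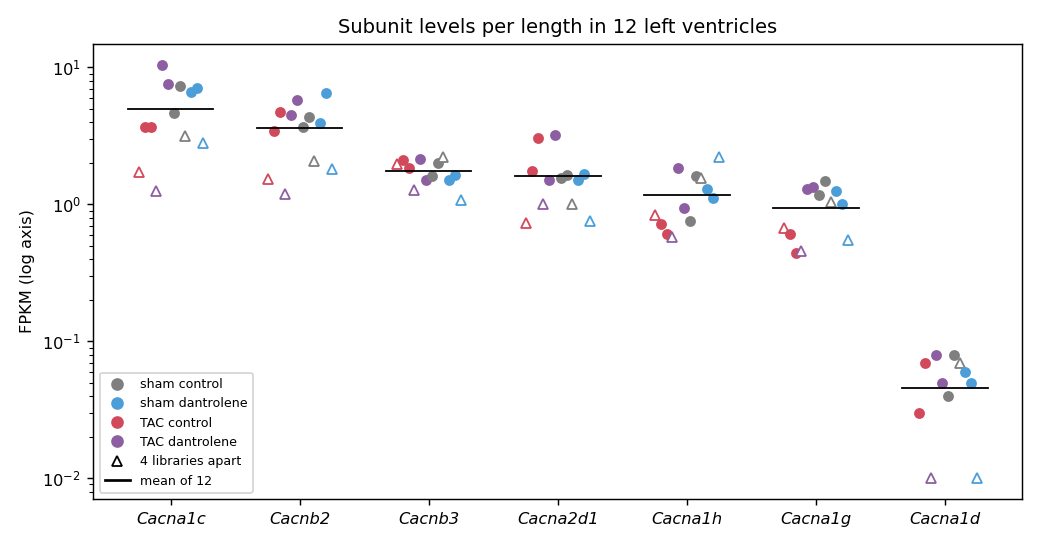
FPKM of the 7 subunits in each of the 12 libraries, on a log axis, in order of their mean; colours give the groups, black lines the mean and triangles the 4 libraries that stood apart. Cacna1c leads at a mean of 5.01 FPKM and Cacna1d is lowest at 0.0458, with its value of 0 in TAC control 1 left out because a log axis cannot show it.

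Cacna1c was then compared between libraries in CPM scaled to library size. The sham control mice had 75.4, 112 and 56.9 CPM (mice 1 to 3), the sham dantrolene mice 107, 114 and 58.9, the TAC control mice 42.4, 65.1 and 63.6, and the TAC dantrolene mice 31.9, 149 and 121. In the same order of groups, means were 81.4 ± 27.9, 93.2 ± 29.9, 57.0 ± 12.7 and 101 ± 61.1 CPM (SD, n = 3 each). The lowest library of every group was one of the 4 that stood apart: these 4 spanned 31.9 to 58.9 CPM and the other 8 spanned 63.6 to 149, without overlap. The 4 were set apart on a component of these same data, so many genes can be expected to separate them. The share of all genes that do was not computed. TAC control overlapped sham control, and the log2 difference was -0.51 ± 0.48 (SE, edgeR quasi-likelihood test, Benjamini-Hochberg adjusted p = 0.799). It ran from -0.72 to -0.21 when 1 library at a time was left out, the smallest difference being that without sham control 2. TAC dantrolene also overlapped TAC control, since mouse 1 was below and mice 2 and 3 above all 3 untreated mice. That log2 difference was 0.82 ± 0.48, with a 95% interval of -0.23 to 1.87 and an adjusted p of 1.00, and it was 0.39 without TAC dantrolene 2 and 1.24 without TAC dantrolene 1. In same-numbered TAC mice the dantrolene minus control difference was -0.41, 1.19 and 0.92 on the log2 scale of CPM plus 0.1.

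Without the 4 libraries, the Cacna1c level rose from TAC control to TAC dantrolene by 1.07 ± 0.22 log2 units (edgeR, adjusted p = 0.0358). These 8 libraries leave 2 mice a group, 65.1 and 63.6 against 149 and 121 CPM. Mitochondrial genes held 15.6 and 22.4% of the reads in these TAC control mice. They held 1.71 and 16.8% in these TAC dantrolene mice, 1.71% being the lowest of the 12 libraries. The part of this in the Cacna1c difference was not tested. In the same fit 3.27% of all genes tested passed the threshold, 1.73% in the upward direction, against 1 of the 7 subunits. With all 12 libraries and a term for the 4, the difference was 0.64 ± 0.28 and did not pass (adjusted p = 0.569). Between sham control and TAC control, Cacna1c differed by -0.56 ± 0.22 without the 4 libraries (adjusted p = 0.150).

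Cacna1d, the other L-type pore, had 0 to 31 reads per library. Sham control mice had 0.355, 0.700 and 0.718 CPM, sham dantrolene mice 0.618, 0.467 and 0.124, TAC control mice 0, 0.346 and 0.735, and TAC dantrolene mice 0.0810, 0.652 and 0.501. All groups overlapped. TAC control 1 had 0 reads, and at 95% confidence a count of 0 leaves room for an expected count of up to 3 reads. The standard error of its log2 difference between TAC control and sham control, -0.66 ± 0.95, was the largest of the 7 subunits. That difference was -0.12 without TAC control 1, -1.62 without TAC control 3 and 0.018 without the 4 libraries.

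**Figure D2:**
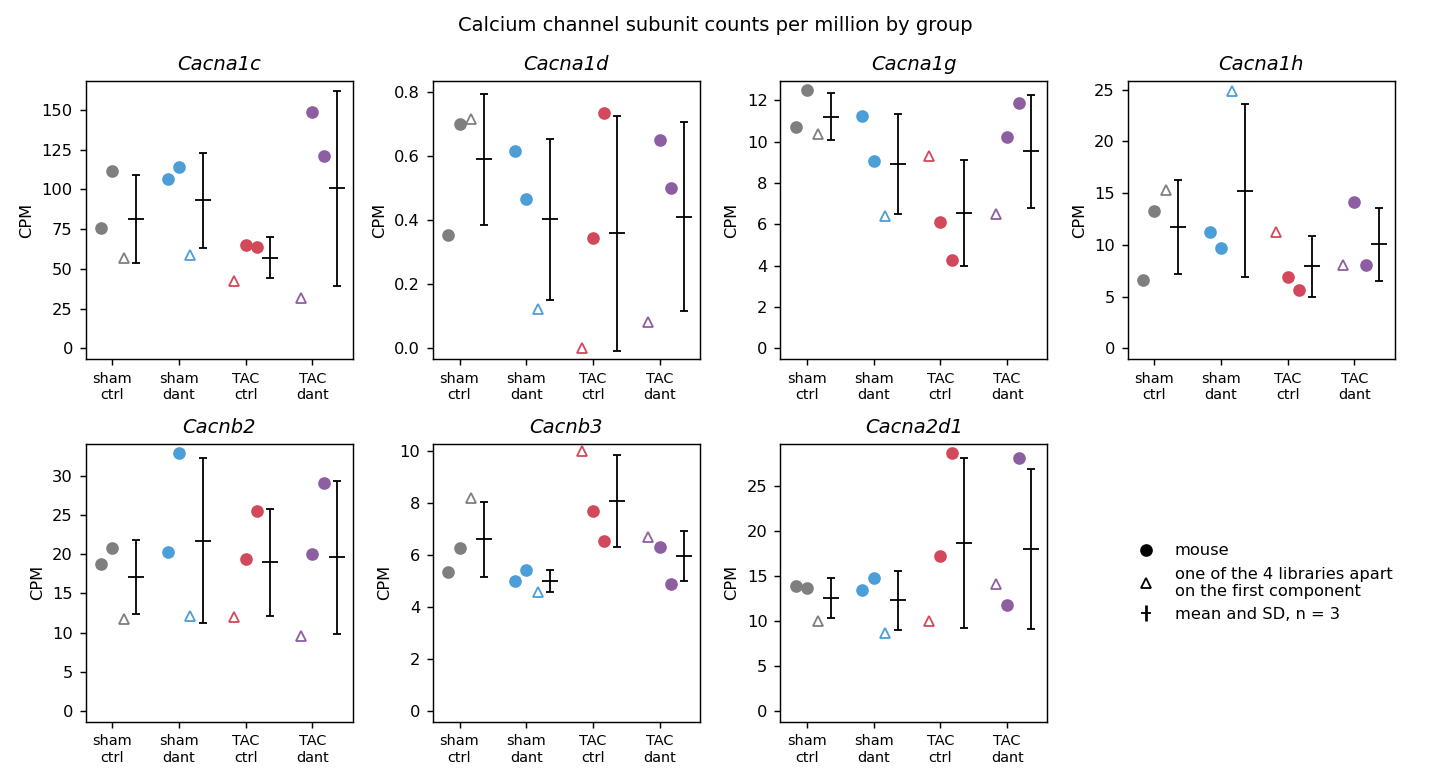
CPM of the 7 subunits by group, 1 panel a gene with its own scale; each point is 1 mouse, triangles are the 4 libraries that stood apart, and bars give the mean and SD of 3 mice. In Cacna1c and Cacnb2 the triangles are the lowest points of every group, and in Cacna1g the 3 TAC control mice sit below the 3 sham control mice.

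The T-type pore Cacna1g was the only subunit whose sham control and TAC control mice did not overlap. Sham control mice had 10.7, 12.5 and 10.4 CPM and TAC control mice 9.33, 6.10 and 4.26, so that the highest TAC control mouse was below the lowest sham control mouse. Sham dantrolene mice had 11.2, 9.05 and 6.41 CPM and TAC dantrolene mice 6.52, 10.2 and 11.9, and both of these groups spanned much of the range. Means were 11.2 ± 1.14 in sham control, 8.90 ± 2.42 in sham dantrolene, 6.56 ± 2.56 in TAC control and 9.53 ± 2.74 in TAC dantrolene (SD, n = 3). The TAC control mean was 1.71-fold lower than the sham control mean, at a log2 difference of -0.77 ± 0.35 (edgeR, unadjusted p = 0.0479, adjusted p = 0.624). It did not pass the threshold, and it ran from -1.11 to -0.54 when 1 library at a time was left out. Among all genes tested, 17.4% had groups that did not overlap in this comparison (9.82% were lower in TAC control), and 7.93% had an unadjusted p under 0.05. With 7 genes, a count of 1 lies near both shares.

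Between TAC dantrolene and TAC control, Cacna1g differed by 0.54 ± 0.35 log2 units (adjusted p = 1.00), with same-numbered differences of -0.51, 0.73 and 1.46. The interaction, the drug difference under TAC minus that under sham, was 0.87 ± 0.50 (edgeR, unadjusted p = 0.103, adjusted p = 1.00). Without the 4 libraries, Cacna1g fell by 1.18 log2 units from sham control to TAC control (SE 0.28, edgeR, adjusted p = 0.0464), where 3.24% of all genes tested passed and 2.06% passed downward. With all 12 libraries and a term for the 4, the difference was -0.75 ± 0.32 and did not pass (adjusted p = 0.291). In the fit without the 4 libraries the drug difference under TAC was 1.09 ± 0.28 (adjusted p = 0.0558) and the interaction 1.27 ± 0.39 (adjusted p = 0.226), neither past the threshold. The overload and the drug comparison share the 3 TAC control mice, so their opposite signs are not separate measurements.

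Cacna1h, the other T-type pore, had 6.602, 13.3 and 15.3 CPM in sham control and 11.2, 6.90 and 5.64 in TAC control. It had 11.2, 9.67 and 24.8 in sham dantrolene and 8.02, 14.1 and 8.05 in TAC dantrolene. All groups overlapped, and sham dantrolene 3 was the highest library. The log2 difference was -0.57 ± 0.45 for TAC control against sham control (adjusted p = 0.768) and 0.35 ± 0.45 for TAC dantrolene against TAC control (adjusted p = 1.00). Averaged over both drug arms, TAC mice differed from sham mice by -0.58 ± 0.32 (edgeR, unadjusted p = 0.0910, adjusted p = 0.753). This was -0.31 without sham dantrolene 3 alone and -0.32 ± 0.25 without the 4 libraries (adjusted p = 0.462). The difference between TAC control and sham control ran from -0.90 to -0.33 with 1 library left out, and that for the drug under TAC was 0.82 ± 0.36 without the 4 libraries (adjusted p = 0.207). Cacna1h shares 158 exonic bases with Tpsg1, a mast cell tryptase gene on the opposite strand, which had 1371 reads in total beside 4170 for Cacna1h. The library preparation was directional, but the strand setting of the counting is not given in the sources used here. Tpsg1 was at its highest, 20.9 CPM, in the library where Cacna1h was highest too, sham dantrolene 3. The libraries next highest in Cacna1h, sham control 3, TAC dantrolene 2 and sham control 2, had 6.42, 1.20 and 1.18 CPM of Tpsg1. The part of Tpsg1 in the Cacna1h values was not tested.

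Cacnb2 had 18.7, 20.8 and 11.8 CPM in sham control, 20.2, 32.9 and 12.1 in sham dantrolene, 11.9, 19.4 and 25.5 in TAC control, and 9.60, 20.1 and 29.1 in TAC dantrolene. Groups overlapped throughout. As for Cacna1c, the 4 libraries that stood apart, at 9.60 to 12.1 CPM, did not overlap the other 8, at 18.7 to 32.9. Here too the share of all genes that separate these libraries was not computed. The log2 difference was 0.15 ± 0.46 for TAC control against sham control (adjusted p = 0.944) and 0.05 ± 0.46 for TAC dantrolene against TAC control (adjusted p = 1.00). The latter was 0.14 without the 4 libraries. The ratio of Cacna1c to Cacnb2 in FPKM was 0.787 to 1.12 in TAC control and 1.28 to 1.70 in sham control, without overlap. It was 1.10 to 1.67 in sham dantrolene and 1.05 to 2.34 in TAC dantrolene, which is a description of these libraries with no test. The ratio was not among the planned descriptions, and how often other gene pairs separate these groups was not computed. Of single genes tested, 17.4% did not overlap between sham control and TAC control.

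Cacnb3, the smaller β subunit, had 5.35, 6.27 and 8.16 CPM in sham control and 4.97, 5.41 and 4.59 in sham dantrolene. TAC control mice had 9.99, 7.67 and 6.52 CPM and TAC dantrolene mice 6.68, 6.29 and 4.89. The dantrolene mouse was below the control mouse of the same number in 6 of 6 pairs, though the groups overlapped in both arms. Cacnb3 was the only subunit of the 7 on 1 side in all pairs, and the share of all genes with that pattern was not computed. Over both arms the drug difference was -0.42 ± 0.21 log2 units (edgeR, unadjusted p = 0.0696, adjusted p = 1.00). With mice of the same number and surgery arm as a block, its unadjusted p was 0.0314 and its adjusted p 0.958. In that blocked fit 4.2% of all genes tested and 1 of the 7 subunits had an unadjusted p under 0.05, against 1.04% and 0 of 7 without the block. Without the 4 libraries the difference was -0.24 ± 0.20 (adjusted p = 0.659).

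The α2δ subunit Cacna2d1 had 13.9, 13.7 and 9.98 CPM in sham control and 13.5, 14.8 and 8.64 in sham dantrolene. TAC control mice had 10.04, 17.3 and 28.7 CPM and TAC dantrolene mice 14.1, 11.8 and 28.2. The 3 highest libraries were all from TAC mice, 2 untreated and 1 treated, while the other 3 TAC mice lay within the range of the sham mice. Averaged over both drug arms the log2 difference of TAC against sham was 0.56 ± 0.30 (edgeR, unadjusted p = 0.0829, adjusted p = 0.749), where 6.78% of all genes tested had an unadjusted p under 0.05. It was 0.33 without TAC control 3 and 0.32 without TAC dantrolene 3, 2 of the high libraries. The same 3 mice also had the highest TAC values of the clock gene Dbp, 139 to 184 against 13.1 to 31.6 CPM in the other 3, while sham mice had 112 to 335. They likewise had the highest values of the heat shock gene Hspa1a, 129.6 to 157 against 7.99 to 14.7 CPM in the other 3 and 4.27 to 13.1 in sham mice. The part of either difference in the Cacna2d1 values was not tested.

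At an adjusted p under 0.05, edgeR called 0 of the 7 subunits in each of 7 comparisons, where it called 0% of all genes tested. The comparisons were the overload in untreated and in treated mice, the drug under TAC and under sham, the interaction, and each factor averaged over the other. At an unadjusted p under 0.05 the count was 1, Cacna1g in TAC control against sham control, and 0 in the other 6 comparisons. The background there was 3.25% for the drug under TAC, 0.715% for the drug under sham, 1.71% for overload in treated mice and 2.82% for the interaction. Groups did not overlap for 1 subunit, Cacna1g, in that same comparison and for 0 in the others. The shares of all genes were 4.76% for the drug under TAC, 7.37% for the drug under sham, 4.86% for overload in treated mice, 0.555% for TAC and 0.0334% for dantrolene over both arms. Without the 4 libraries the subunits called were Cacna1g and Cacna1c, as given, and 0 in the other comparisons, where 0.0468% of all genes were called for the interaction, 0.448% for TAC over both drug arms and 0% elsewhere. DESeq2 called 83, 12, 0, 4 and 1 genes for overload in untreated mice, the drug under TAC, the drug under sham, overload in treated mice and the interaction, with 0 subunits among them. It called 55 and 1 genes for TAC and for dantrolene over both arms, again with 0 subunits. The median log2 difference of the 7 subunits was -0.51 for overload in untreated mice, beside 0.10 for all genes, with 3 positive and 4 negative. The drug under TAC gave 0.18 beside 0.02, with 5 positive and 2 negative. Of all genes tested, 57.2% were positive for overload in untreated mice and 51.8% for the drug under TAC.

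**Figure D3:**
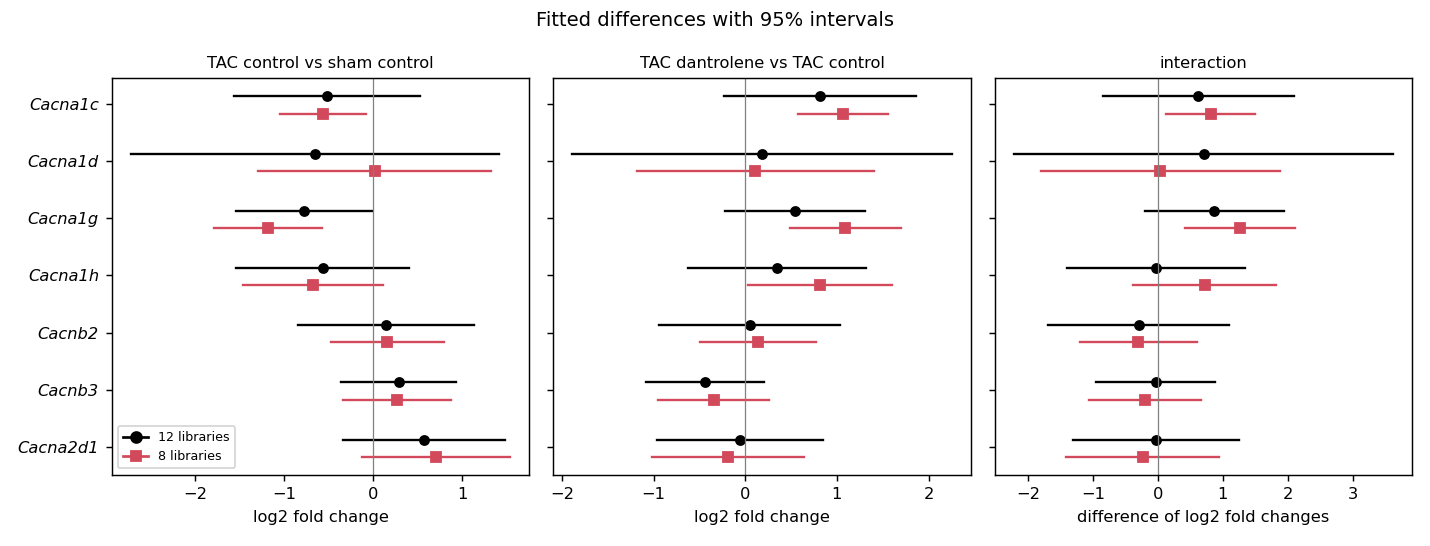
Log2 differences of the 7 subunits in 3 comparisons with 95% intervals from edgeR, for all 12 libraries and for the 8 libraries left without the 4 that stood apart. With 12 libraries, the interval of Cacna1g for overload ends just under 0, from -1.54 to -0.01, and Cacna1c for the drug under TAC runs from -0.23 to 1.87.

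The make-up of the channel RNA was described as shares of FPKM within a library. T-type pores made up 29.1, 29.4 and 44.6% of the FPKM of the 4 pores in sham control, 27.6, 22.9 and 49.3% in sham dantrolene, 46.9, 26.5 and 21.8% in TAC control, and 45.2, 22.9 and 22.9% in TAC dantrolene. Group means were 34.3 ± 8.89, 33.3 ± 14.1, 31.7 ± 13.3 and 30.3 ± 12.9% (SD, n = 3), closer together than the mice of any group. The 4 libraries that stood apart held 44.6 to 49.3% and the other 8 held 21.8 to 29.4%, without overlap. How often shares of other genes separate these libraries was not computed. Cacnb3 made up 38.02 ± 11.9% of the FPKM of both β subunits in sham control, 28.3 ± 8.39% in sham dantrolene, 40.9 ± 14.3% in TAC control and 35.0 ± 15.8% in TAC dantrolene. These shares also overlapped between groups, and the same libraries were the highest of their groups.

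**Figure D4:**
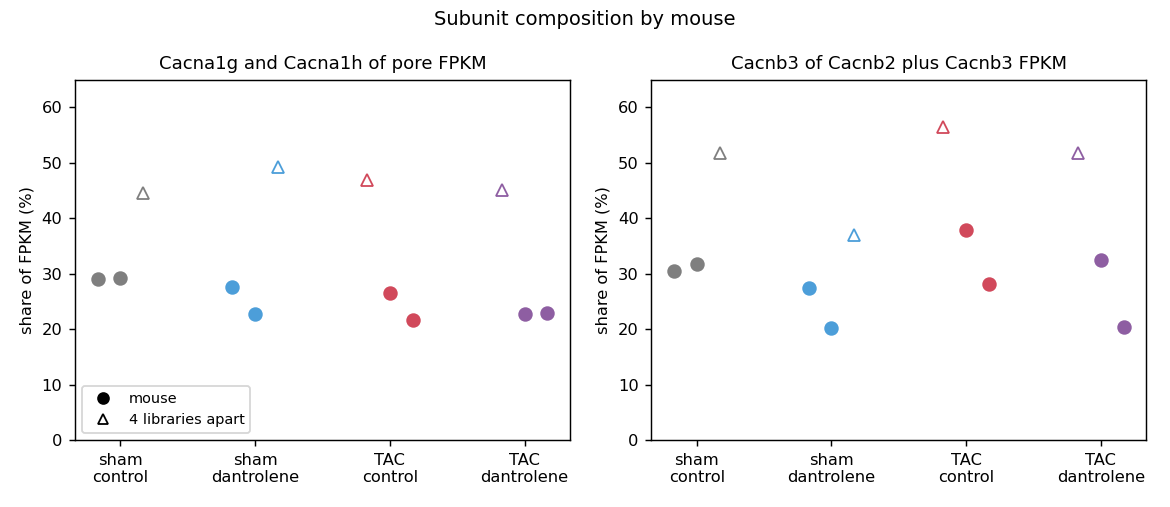
Share of T-type pores in the FPKM of the 4 pores (left) and of Cacnb3 in the FPKM of both β subunits (right), in percent, by group; circles are mice and triangles the 4 libraries that stood apart. The triangles hold T-type shares of 44.6 to 49.3%, above the 21.8 to 29.4% of the other 8 libraries in every group.

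Of 19 other channel subunit genes, 7 passed the filter and 12 had at most 14 reads in any library. For overload in untreated mice 3 of the 7 were positive and 4 negative, and 2 had an unadjusted p under 0.05, both lower. Of all genes tested, 57.2% were positive in this comparison and 7.93% had an unadjusted p under 0.05. The γ subunit Cacng6 averaged 2.98 CPM in sham control and 0.648 in TAC control (log2 difference -2.19 ± 0.38, edgeR, adjusted p = 0.233). The skeletal L-type pore Cacna1s averaged 13.5 and 7.04 CPM (-0.94 ± 0.24, adjusted p = 0.453). For the drug under TAC the log2 differences were 2.02 ± 0.38 for Cacng6 and 0.69 ± 0.24 for Cacna1s, both with an adjusted p of 1.00. In the 8 libraries without the 4, Cacng6 passed in both comparisons, at -2.04 (adjusted p = 0.0268) and 2.03 (adjusted p = 0.0293). Its counts were low, 10 to 171 reads per library. In the fit of 8 libraries, with 2 mice a group, 3.24% of all genes tested passed for overload and 3.27% for the drug. Both comparisons share the TAC control mice, so the opposite signs of Cacng6 are not separate measurements.

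Of 30 regulators and partners of the channel, 28 were tested. For overload in untreated mice 16 were positive and 12 negative, with 3 at an unadjusted p under 0.05 (Rrad, Camk2a and Nedd4l), all lower. The shares of all genes tested were 57.2% positive and 7.93% at an unadjusted p under 0.05. Rrad, a small GTPase that restrains L-type current through the β subunit, averaged 334 CPM in sham control and 98.8 in TAC control (-1.76 ± 0.42, adjusted p = 0.405). Under the drug in TAC mice 19 were positive and 9 negative, and Rrad was the only one at an unadjusted p under 0.05 (1.29 ± 0.41, adjusted p = 1.00). The shares of all genes there were 51.8% positive and 3.25% at an unadjusted p under 0.05. In the 8 libraries Rrad fell with overload (-2.36, adjusted p = 0.0182) and rose with the drug under TAC (1.80, adjusted p = 0.0370). Camk2a, a calmodulin-dependent kinase, also fell with overload there (-1.25, adjusted p = 0.0246), and Pde4d, a phosphodiesterase that degrades cyclic AMP, rose with the drug (1.78, adjusted p = 0.0260). In that fit, with 2 mice a group, 3.24% of all genes tested passed for overload and 3.27% for the drug. Both comparisons share the TAC control mice, so the opposite signs of Rrad are not separate measurements. Of 19 genes of the dyad and calcium release, where the channel meets the ryanodine receptor, 18 were tested. For overload 10 were positive and 8 negative, and the junctional protein gene Trdn alone had an unadjusted p under 0.05 (1.32 ± 0.54, adjusted p = 0.585). In the drug comparison under TAC 11 were positive and 7 negative, and the sodium-calcium exchanger Slc8a1 alone had an unadjusted p under 0.05 (1.24 ± 0.51, adjusted p = 1.00). Slc8a1 and the calcium pump Atp2a2 rose with the drug in the 8 libraries (1.51 and 0.91, adjusted p = 0.0332 and 0.0449). The shares of all genes given for the regulators hold for these counts too. With 12 libraries 0 genes of these 3 lists passed the threshold in any comparison.

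The genes whose levels followed each subunit most closely over the 12 libraries were found by the root mean square (RMS) difference of centred log2 CPM. For Cacna1c they were Bcor and Wee1 (RMS 0.129 and 0.145, against a median of 0.785 over all genes). For Cacna2d1 they were Rab1 and Sucla2 (0.0973 and 0.0994), the closest for any subunit. For Cacna1g they were Inppl1 and Sbk1 (0.135 and 0.145), and for Cacna1h Tln1 and Hdac6 (0.256 and 0.263). Zfp263 and Hnrnpf were nearest to Cacnb2 (0.190 and 0.191), and Lin37 and Mical1 to Cacnb3 (0.141 and 0.183). For Cacna1d, at its low counts, the nearest genes Hrk and Tenm3 differed by 0.428 and 0.447, against a median of 1.18 over all genes. The RMS is not scaled to the spread of each subunit, which was largest for Cacna1d (1.12 as RMS of its centred log2 CPM). RMS values therefore do not rank the subunits by closeness of match.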

How the data were processed

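Directional poly(A) libraries from 12 left ventricles were read in pairs of 150 bases, per the labels. GRCm38, TopHat2, bcl2fastq and edgeR appear in the processing notes of the submitters. How reads were counted (tool, annotation, strand) is not given in the sources used here. Counts of whole reads were deposited for 25319 genes without normalisation, and FPKM for 25258 genes were deposited beside them. For 7194 genes above 1 FPKM in every library, the FPKM equalled the counts times 1 factor per library and 1 per gene, to within 0.05 on the log2 scale for 100% of the values. Genes were matched by identifier to GENCODE vM21 (GRCm38).

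Samples were grouped by their titles, 3 mice a group. Counts were fitted with edgeR 4.0.16 in R 4.3.3 (filterByExpr, minimum count 10; TMM scaling; 4 group means over 12 libraries; 8 residual degrees of freedom; robust quasi-likelihood). Tests were two-sided, with Benjamini-Hochberg adjustment over 14965 genes and a threshold of 0.05. The common biological coefficient of variation was 0.443, and CPM are scaled by TMM. The 7 members, the lists and the comparisons were chosen with earlier results of these data known. Named genes are the 7 members, those of each list with the smallest p, and the 2 nearest genes per member. Dbp, Hspa1a and Tpsg1 were added after their values were seen.

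Same-numbered control and dantrolene mice deviated together, with correlations of 0.366 to 0.672 within sham and 0.300 to 0.613 within TAC. Correlations of different-numbered mice ran from -0.616 to 0.375 within sham and from -0.561 to 0.221 within TAC. The library apart has the same number in both groups of an arm, and the titles name the numbers only as biological replicates. Whether the numbers pair mice is therefore not settled, and the main fit has no block. Between surgery arms the correlations of same-numbered mice ran from -0.377 to 0.283. In the surgery comparisons the replicate block still took same-numbered sham and TAC mice of a drug arm as blocks. The alternatives were DESeq2 1.42.0, limma 3.58.1 on log2 of FPKM plus 0.1, RLE scaling, no filter, a replicate block and each library left out. Leaving out the 4 libraries apart, or giving them a term, was added after seeing the data.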

Additional observations from a re-analysis of the deposited data

How the results depend on the processing

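With 12 libraries, edgeR called 0 genes in each of the 7 comparisons. The unadjusted p was under 0.05 for 1186 genes for overload in untreated mice, 486 for the drug under TAC, 107 for the drug under sham, 256 for overload in treated mice, 422 for the interaction, 1014 for TAC over both drug arms and 156 for dantrolene over both surgery arms. Without the 4 libraries apart it called 485, 489, 0, 0, 7, 67 and 0 genes in that order. The subunits called were then 1 (Cacna1g) for overload in untreated mice, 1 (Cacna1c) for the drug under TAC and 0 elsewhere. With a term for them it called 21, 0, 0, 0, 0, 6 and 0 genes, and with no filter on low counts 3, 1, 0, 0, 0, 4 and 0. The replicate block called 0 subunits, as without it. Leaving out 1 library at a time called 0 subunits and at most 14 genes for overload. Counts in place of FPKM gave a T-type share of 22.7% in sham control.

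Of 931 log2 differences of subunits under alternatives, 87 had the other sign, and the cause was not tested. Without the 4 libraries these were 0.018 for Cacna1d in overload of untreated mice, 0.069 and 0.050 for Cacna1d and Cacna2d1 for the drug under sham, 0.043 for Cacna1h in overload of treated mice, 0.72 for the Cacna1h interaction, 0.038 and 0.011 for Cacna1d and Cacnb2 for TAC over both drug arms, and 0.089 for Cacna1d for dantrolene over both arms. On FPKM, where the median of all genes moved by -0.28 for overload, 0.12 for the drug under TAC, -0.11 for the drug under sham, 0.21 for the interaction and -0.16 for TAC over both drug arms, they were -0.13 for Cacnb2 in overload, 0.091 for Cacna2d1 for the drug under TAC, -0.12 for Cacna1c in overload of treated mice, and 0.22, 0.18 and 0.22 for the Cacna1h, Cacnb3 and Cacna2d1 interactions. For the drug under TAC, Cacnb2 was -0.0013 with DESeq2, -0.0013 with RLE scaling, -0.020 with the replicate block and -0.0079 with the term, where Cacna2d1 was 0.0074. In overload of treated mice, Cacna1c was -0.068 with the replicate block and -0.024 with the term, and Cacna1d -0.0081 with DESeq2 and -2.7e-05 with RLE scaling. The interaction with the replicate block was 0.022 for Cacna1h and 0.0080 for Cacna2d1, and with the term 0.15 and 0.057.

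Leaving out 1 library at a time moved Cacna1g in overload of untreated mice from -1.11 to -0.54 and Cacna1c for the drug under TAC from 0.39 to 1.24. Signs turned within these ranges. For overload in untreated mice, Cacnb2 ran from -0.13 to 0.39. For the drug under TAC, Cacna1d ran from -0.36 to 1.14, Cacna1h from -0.011 to 0.68, Cacnb2 from -0.35 to 0.37 and Cacna2d1 from -0.53 to 0.40. For the drug under sham, Cacna1h ran from -0.16 to 0.62, Cacnb2 from -0.083 to 0.64 and Cacna2d1 from -0.18 to 0.17. In overload of treated mice, Cacna1c ran from -0.31 to 0.53, Cacna1d from -0.47 to 0.50, Cacna1g from -0.090 to 0.31 and Cacnb2 from -0.55 to 0.28. For the interaction, Cacna1h ran from -0.40 to 0.51, Cacnb2 from -0.70 to 0.13, Cacnb3 from -0.25 to 0.15 and Cacna2d1 from -0.51 to 0.42. For TAC over both drug arms, Cacna1c ran from -0.40 to 0.011 and Cacnb2 from -0.20 to 0.21. For dantrolene over both arms, Cacna1d ran from -0.43 to 0.31, Cacna1g from -0.011 to 0.28, Cacnb2 from -0.018 to 0.36 and Cacna2d1 from -0.28 to 0.19.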

Other observations

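The 4 subunits with the lowest GC content were 1.66 to 2.37 times lower in the 4 libraries apart, while the ratios of the other 3 ran from 0.636 to 1.16. Cacnb2, whose longest annotated transcript is 39.0% G or C, had a mean CPM 2.06 times as high in the other 8 libraries as in these 4. The ratio was 1.66 for Cacna2d1 at 40.7%, 2.37 for Cacna1d at 49.6% and 2.12 for Cacna1c at 50.4%. It was 1.16 for Cacna1g at 58.1%, 0.636 for Cacna1h at 60.0% and 0.805 for Cacnb3 at 61.3%. The ratios did not follow GC content in order within either set. The longest annotated transcripts of the same 4 subunits, 5030 to 13162 bases, overlapped in length with those of the other 3, 2734 to 8383 bases. Their unions of annotated exons did not overlap, at 12416 to 21191 against 4010 to 10137 bases. GC content and length of the exon union therefore cannot be told apart in these genes. This describes 7 genes in 12 libraries, was noticed after their values were seen, and was not tested.

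Vascular smooth muscle also expresses Cacna1c. The summed CPM of its 8 markers was 537 to 694 in sham control, 463 to 659 in sham dantrolene, 656 to 812 in TAC control and 672 to 778 in TAC dantrolene. Its part in the levels of Cacna1c was not tested.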
